A study of Drosophila melanogaster with 8 samples.

Results

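The 10 mRNAs described here are made inside mitochondria, from the mitochondrial genome, and specify subunits of the respiratory chain. They were picked by gene identifier from a table of 14012 genes that gives RNA levels in exosomes of Drosophila S2 cells and in the cells that released them. They comprise ND1 (CG34092), ND2 (CG34063), ND3 (CG34076), ND4 (CG34085) and ND5 (CG34083) of complex I and CYTB (CG34090) of complex III. The others are COX1 (CG34067), COX2 (CG34069) and COX3 (CG34074) of complex IV and ATP6 (CG34073) of complex V. All 10 were present in the table with 1 transcript each, and all 10 had an FPKM above 1 in at least 4 of the 8 libraries, the condition for entering the test. They were chosen by what they encode and not by a threshold on their values, though earlier results of these data were known. Of the 13 mitochondrially encoded protein genes in the table, ATP8, ND4L and ND6 are not among the 10, and 0 of the 24 mitochondrial rRNA and tRNA genes of the annotation were in the table.

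S2 is an established Drosophila cell line of embryonic origin with features of macrophage-like blood cells. Polyadenylated RNA was sequenced from 4 libraries of S2 exosomes and 4 libraries of S2 cells, and the labels name no treatment, mutation or transgene in either group. The libraries are numbered 1 to 4 in both groups, and the submitters speak of 4 separate experiments. Nothing else in the labels says that libraries came from separate cultures, so p-values measure only how much these libraries vary, and part of that may be technical.

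Animal mitochondria keep a small circular genome of their own. It is read into long precursor RNAs from both strands, and the tRNA genes that lie between most of the protein genes mark where the precursors are cut into mRNAs. The mRNAs receive short poly(A) tails and are translated inside the organelle, so that they normally do not enter the cytosol. Their products join many more subunits that are encoded in the nucleus and imported. Exosomes are vesicles that form inside endosomes and are released to the outside.

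In the Release 6 annotation of the fly genome the 10 genes follow each other in the order ND2, COX1, COX2, ATP6, COX3, ND3, ND5, ND4, CYTB and ND1. The 7 genes ND2, COX1, COX2, ATP6, COX3, ND3 and CYTB lie on the plus strand and the 3 genes ND5, ND4 and ND1 on the minus strand. ATP8, ATP6 and COX3 follow each other with 0 tRNA genes between them, as do ND4 and ND4L and also ND6 and CYTB, while 3 tRNA genes separate ND2 from COX1 and 6 separate ND3 from ND5. The authors' values were made on an older build, so no coordinates are given.

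All values are FPKM, fragments scaled to the length of the transcript and to the depth of the library, so that levels can be compared between genes. Where 4 values are given for a group, they stand in the order of replicates 1 to 4. They are not on an equal scale between libraries, because the summed FPKM of a library ran from 91304 in exosome replicate 3 to 1140885 in cell replicate 2, a 12.5-fold range. Exosome replicate 1 stood apart, where 64 of 145 abundant genes (44.1%; abundant meaning a median of at least 200 FPKM elsewhere) were listed at 0, and an exact 0 there can be a failed estimate. In each other library at most 1.71% of such genes were listed at 0. Exosome replicate 2 was shallow: its values rest on an estimated 101000 fragments, against 1930000 and 2170000 for exosome replicates 3 and 4. Cell replicates 2, 3 and 4 rest on 2000000, 2320000 and 6600000. No depth could be estimated for the replicates numbered 1. Of 13 plasmatocyte (blood cell) markers 6 had an FPKM above 1 in every cell library, and 0 markers of neurons, muscle, fat body or testis did.

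The mitochondrially encoded mRNAs were at or near 0 in 3 of the 4 exosome libraries and lay within the range of the cells in the fourth, exosome replicate 2. Their summed FPKM was 0, 1562, 10.2 and 15.4 for the exosome libraries, against 923, 8364, 481 and 469 for the cell libraries. Exosome replicates 1, 3 and 4 lay below every cell library, and exosome replicate 2 lay above 3 of the 4 cell libraries. In parts per 1000000 of a library's summed FPKM (ppm), which removes the unequal scale, the sums were 0, 4702, 112 and 36.4 ppm in exosomes, against 1265, 7331, 4679 and 4239 ppm in cells. Here too only exosome replicate 2 reached the range of the cells. In bulk RNA, fewer vesicles or cells that hold these mRNAs and less of them in each cannot be told apart.

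**Figure D1:**
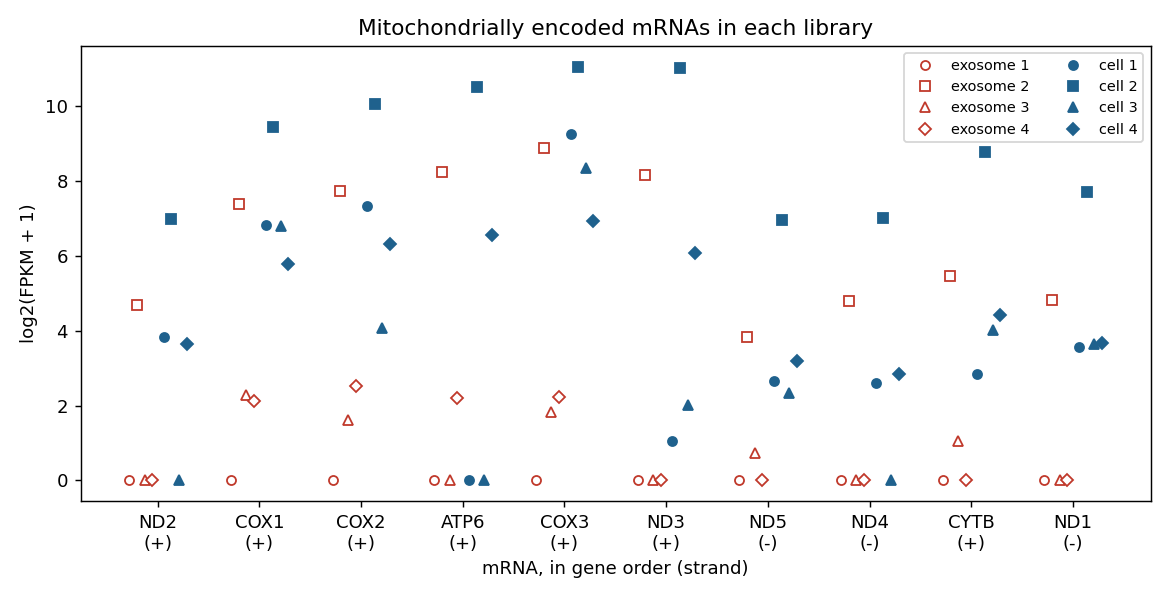
Level of each mRNA as log2(FPKM + 1) in the 8 libraries, in gene order with the strand in brackets. Open red symbols are exosome libraries and filled blue symbols cell libraries, with 1 symbol shape for each replicate number. Exosome replicate 2 lies well above the other 3 exosome libraries for every mRNA, and cell replicate 2 above the other 3 cell libraries.

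Of the 40 exosome values of the 10 mRNAs, 21 (52.5%) were listed at 0, against 24.8% of the exosome values of all genes tested. Of the 40 cell values, 4 (10%) were listed at 0, against 3.05% for all genes tested. All 10 were at 0 in exosome replicate 1, where 42.3% of the tested genes were at 0. In exosome replicate 3, 5 of the 10 were at 0 against 5.88% of the tested genes, and in exosome replicate 4, 6 of the 10 against 2.03%. In exosome replicate 2 the relation was the other way round, with 0 of the 10 at 0 against 48.9% of the tested genes.

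Complex IV, cytochrome c oxidase, passes electrons to oxygen, and its 3 core subunits are the products of COX1, COX2 and COX3. COX3, which specifies a core subunit next to the catalytic center, was listed at 0, 467, 2.57 and 3.73 FPKM in exosomes, against 611, 2112, 322 and 119.7 FPKM in cells. Its groups overlapped only through exosome replicate 2, which lay above cell replicates 3 and 4. The log2 difference, exosome minus cell on the log2(FPKM + 1) scale, was -5.65 (SE 1.72), with an adjusted p of 0.708 in limma's moderated test across all genes. This was the lowest difference of all 5868 genes tested, on a scale where only genes with a high level in cells can reach so low a value. Without exosome replicate 1, where an exact 0 can be a failed estimate, the difference of COX3 was -4.57 (limma adjusted p = 0.846).

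COX1, the subunit with the catalytic heme and copper site, had 0, 165, 3.82 and 3.33 FPKM in exosomes, against 112, 685, 109 and 53.7 FPKM in cells. Its log2 difference was -4.26 (SE 1.61, limma adjusted p = 0.708). COX2, which receives the electrons from cytochrome c, had 0, 211, 2.07 and 4.72 FPKM in exosomes, against 158, 1052, 15.9 and 78.5 FPKM in cells. Its log2 difference was -3.97 (SE 1.60, limma adjusted p = 0.708). For both genes 3 exosome libraries lay below all 4 cell libraries and exosome replicate 2 lay above 3 of them.

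ATP6 specifies the membrane subunit of the ATP synthase through which protons flow. Its values were 0, 302, 0 and 3.64 FPKM in exosomes, against 0, 1455, 0 and 93.1 FPKM in cells. The zeros fell on the replicates numbered 1 and 3 in both groups, although COX3, its direct neighbor, had 611 and 322 FPKM in these cell libraries. The log2 difference of ATP6, -1.65 (SE 1.42, limma adjusted p = 0.735), was the smallest in size of the 10, and without cell replicate 2 it turned to 0.43 (limma adjusted p = 0.991).

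CYTB specifies cytochrome b, the central membrane subunit of complex III. It had 0, 43.1, 1.09 and 0 FPKM in exosomes, against 6.21, 434, 15.1 and 20.4 FPKM in cells. Here exosome replicate 2 lay above 3 cell libraries and the other exosome libraries lay below all of them. The log2 difference was -3.38 (SE 1.41, limma adjusted p = 0.708).

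The ND genes specify membrane subunits of complex I, which takes electrons from NADH. ND3 was listed at 0, 283, 0 and 0 FPKM in exosomes, against 1.08, 2045, 3.01 and 65.7 FPKM in cells, the widest range of the 10 mRNAs among cells relative to the lowest value above 0. ND1 had 0, 27.4, 0 and 0 FPKM in exosomes, against 10.7, 207, 11.4 and 11.8 FPKM in cells. For ND1, 3 of the 4 cell libraries lay close together, and exosome replicate 2 lay above those 3.

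ND2 had 0, 24.5, 0 and 0 FPKM in exosomes, against 13.1, 125, 0 and 11.4 FPKM in cells. ND4 had 0, 26.5, 0 and 0 FPKM in exosomes, against 5.09, 126, 0 and 6.11 FPKM in cells. ND5 had 0, 13.2, 0.671 and 0 FPKM in exosomes, against 5.25, 122, 4.02 and 8.12 FPKM in cells. These 3 were the weakest mRNAs by mean FPKM in cells, and ND2 and ND4 were both at 0 in cell replicate 3. The log2 differences of the 5 ND mRNAs ran from -3.43 (ND1, SE 1.36) through -2.99 (ND3, SE 1.43), -2.63 (ND5, SE 1.28) and -2.44 (ND2, SE 1.26) to -1.91 (ND4, SE 1.19). Each had a limma adjusted p of 0.708.

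The 3 mitochondrial protein genes outside the 10 gave little signal. ATP8, a small subunit of the ATP synthase whose reading frame overlaps that of ATP6, was listed at 0 in all 8 libraries. ND4L, beside ND4, had 25.9 FPKM in cell replicate 1 and 0 elsewhere. ND6 had 49.1 and 24.4 FPKM in cell replicates 1 and 2 and 0 in the other 6 libraries. None of the 3 reached the condition for the test. The files do not show how reads in the overlap of ATP8 and ATP6 were divided, so the values of both are uncertain.

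Fitted over all genes together, limma called 0 of the 10 mRNAs and 0 of 5868 genes in either direction, a background of 0% at an adjusted p under 0.05. All 10 log2 differences were below 0, as were 85.7% of those of the genes tested, with a median of -3.19 and a range from -5.65 to -1.65. The median over all genes tested was -1.01, and all 10 lay below it. At an unadjusted limma p under 0.05, 7 of the 10 were lower (COX3, COX1, ND1, COX2, CYTB, ND3 and ND5, with p from 0.00101 to 0.0388), against 271 of all genes tested, a background of 4.62%. In the other direction it was 0 of the 10, with a background of 0.0852%. These limma SE and p rest almost wholly on a spread shared by genes of similar level. They say little about the spread of each mRNA's own values. All 10 had a log2 difference below -1, which 50.2% of the genes tested also had. ND1, ND2, ND3, ND4 and ND5 had an FPKM above 1 in only 1 exosome library, replicate 2, and so met the condition for the test mainly through the cells, which makes these counts and medians a description. The 10 mRNAs are cut from shared precursors and are not independent of each other. The median of the 10 moved to -2.58 without exosome replicate 1, to -4.65 without exosome replicate 2 and to -1.85 without cell replicate 2. With limma's library weights, which count less consistent libraries less, COX3 was called lower (log2 difference -5.79, SE 1.34, limma adjusted p = 0.0423, with adjusted p of the 10 mRNAs from 0.0423 to 0.9997 over the alternatives tried).

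**Figure D2:**
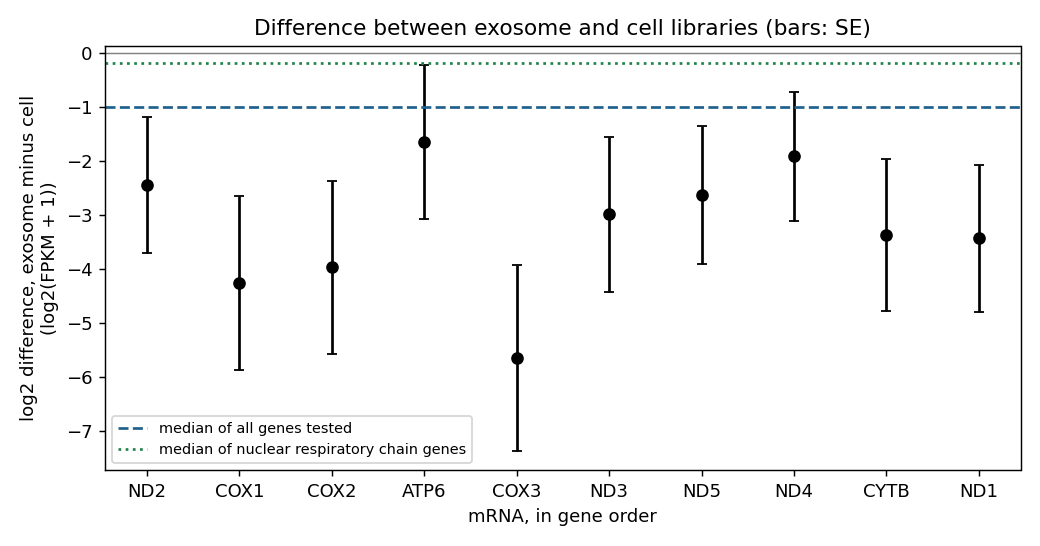
Log2 difference between exosome and cell libraries for each mRNA on the log2(FPKM + 1) scale, with bars of 1 SE from limma. The SE comes almost wholly from a spread shared by genes of similar level. The dashed line is the median of all genes tested (-1.01) and the dotted line that of the nuclear-encoded respiratory chain genes (-0.19). All 10 points lie below both lines, from -5.65 for COX3 to -1.65 for ATP6, and none was called.

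As a share of the library, 0 of the 10 had an unadjusted exact permutation p under 0.05, with a background of 2.83% of the genes tested, lower in exosomes. In ppm of summed FPKM, COX3 was at 360 ± 696 (SD, n = 4) in exosomes, against 1727 ± 1034 (SD, n = 4) for the cells (exact permutation p = 0.0857, two-sided). For ND1 the values were 20.6 ± 41.3 (SD, n = 4) and 103.5 ± 68.4 (SD, n = 4), with the lowest p of the 10 (two-sided exact permutation p = 0.0571). The smallest p that 4 against 4 libraries allow is 0.0286, reached only where the groups do not overlap, and the next larger one is 0.0571. Adjusted over all genes tested the exact p was 0.872 or more for every gene. An adjusted p under 0.05 would need most genes tested to reach the smallest p, so the adjusted result says little. The exosome SD exceeded the exosome mean for every one of the 10, because exosome replicate 2 held nearly all of the signal.

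In 0 of the 10 did all exosome libraries lie below all cell libraries, in ppm or in FPKM, where the background was 2.83% and 0.75% of the genes tested. In ppm this restates the exact permutation test and is not a further result. Without exosome replicate 2, 5 of the 10 did so in ppm (COX1, COX2, COX3, ND3 and ND1, background 4.38%). In FPKM 7 of the 10 did so (these 5 with ND5 and CYTB, background 1.57%), a setting added after the data were seen. Of the 8 libraries left out in turn, the only other one that gave such genes in ppm was cell replicate 1, with 2 (CYTB and ND1, background 3.6%). With both replicates numbered 1 left out it was also 2, with a background of 4.21%.

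The low exosome values rest on few fragments. The steps between the low values of other genes gave the number of fragments behind each value for 6 libraries and for 9 of the 10 mRNAs, with ND3 left out as too short. Of the 19 values that came to between 1 and 19 fragments, 16 lay within 0.15 of a whole number. COX1 was seen in 10 fragments in exosome replicate 3 and 9 in exosome replicate 4. COX3 was seen in 3 and 4 fragments, COX2 in 2 and 4, CYTB in 2 and 0, ND5 in 2 and 0, and ATP6 in 0 and 3. ND2, ND4 and ND1 were seen in 0 fragments in both.

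COX1 and COX3 were seen in many more fragments in a cell library of about equal depth. Cell replicate 3, with 2320000 fragments against 1930000 in exosome replicate 3, had 331 fragments of COX1 and 418 of COX3. The exact Poisson 95% interval of COX1 was 1.84 to 7.06 FPKM in exosome replicate 3 and 97.8 to 122 FPKM in cell replicate 3. For COX3 it was 0.534 to 7.57 FPKM against 292 to 355 FPKM. These intervals cover counting error only and compare these 2 libraries, not the conditions. Where ND1 was at 0 fragments in exosome replicate 3, the exact Poisson 95% interval still reached up to 2.55 FPKM, against 11.4 FPKM in cell replicate 3. ATP6, ND2 and ND4, at 0 in both of these libraries, showed no difference detectable at this depth.

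In exosome replicate 2 the same 9 mRNAs summed to 86 fragments, with 27 of COX3, 22 of COX1, 14 of ATP6, 10 of COX2, 4 of CYTB, 3 of ND4 and 2 each of ND2, ND5 and ND1. The sum was 19 fragments in exosome replicate 3 and 20 in exosome replicate 4, in far deeper libraries. Per 1000000 fragments this was 850 (exact Poisson 95% interval 680 to 1050), 9.82 (5.91 to 15.3) and 9.21 (5.63 to 14.2). Cell replicates 2, 3 and 4 had 4226, 358 and 229 per 1000000 fragments. The level in exosome replicate 2 was counted from few fragments, but its interval lay above those of the other 2 exosome libraries with a known depth. On this scale it also lay above the values of cell replicates 3 and 4. Rates per 1000000 fragments carry the unequal scale of FPKM. In ppm of summed FPKM, over all 10 mRNAs, exosome replicate 2 was at 4702, against 4679 and 4239 in cell replicates 3 and 4. Its distance from these cell libraries thus depends on the scale.

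**Figure D3:**
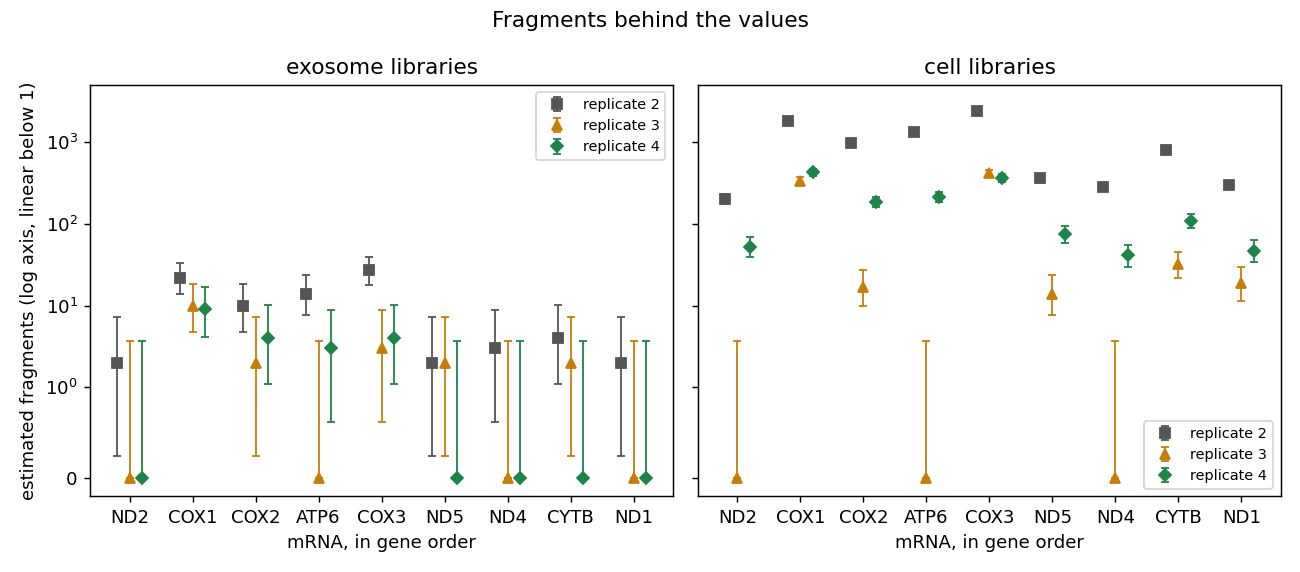
Estimated number of fragments behind each value in the 6 libraries with a known depth, exosome libraries on the left and cell libraries on the right, on a log axis that is linear below 1. Symbols are the nearest whole number of fragments and bars exact Poisson 95% intervals. No exosome value exceeds 27 fragments, whereas COX1 and COX3 have 331 to 2407 in the cell libraries.

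Across the gene order, signal was concentrated in the stretch from COX1 to ND3. The 5 mRNAs of this stretch (COX1, COX2, ATP6, COX3 and ND3) held 95.6%, 87.9%, 93.7% and 87.7% of the summed FPKM of the 10 in cell replicates 1 to 4. For exosome replicates 2, 3 and 4 the share was 91.4%, 82.8% and 100%. The 3 COX mRNAs alone held 95.5%, 46.0%, 93.0% and 53.8% in the cells and 54.0%, 82.8% and 76.4% in these exosome libraries. In cell replicates 1 and 3 and exosome replicate 3, ATP6 and ND3 thus added little or nothing to the stretch. The 3 minus-strand mRNAs ND5, ND4 and ND1 held 2.29%, 5.45%, 3.21% and 5.55% in the cells and 4.29%, 6.56% and 0% in these exosome libraries. The ranges of exosomes and cells overlapped for each of these measures, and the last 2 exosome libraries rest on 19 and 20 fragments.

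COX3 was the most abundant of the 10 mRNAs in all 4 cell libraries and in exosome replicate 2. Below it the order depended on the library. In cell replicates 2 and 4 and exosome replicate 2 the first 5 places were taken by COX3, ATP6, ND3, COX2 and COX1 in varying order, followed by CYTB in sixth and ND1 in seventh place. In cell replicates 1 and 3 ATP6 was at 0 and ND3 at 1.08 and 3.01 FPKM, so that COX2 and COX1 stood next to COX3. The differences in level among COX1, COX2, ATP6 and ND3 in cells were within their spread between libraries.

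The makeup of the mitochondrial RNA, as listed in FPKM, differed among the cell libraries, and exosome replicate 2 was closer to cell replicates 2 and 4 than to cell replicates 1 and 3. COX3 took 66.2% and 67.0% of the summed FPKM of the 10 in cell replicates 1 and 3, but 25.3% and 25.6% in cell replicates 2 and 4. Its share was 29.9% in exosome replicate 2 and, on 3 and 4 fragments, 25.2% and 24.2% in replicates 3 and 4. ATP6 took 17.4% and 19.9% in cell replicates 2 and 4 and was at 19.3% and 23.6% for exosome replicates 2 and 4. It was at 0 in the libraries numbered 1 and 3. ND3 took 24.5% and 14.02% in cell replicates 2 and 4, 18.1% in exosome replicate 2, and at most 0.626% in cell replicates 1 and 3. COX2 was at 0.145 times the level of COX1 in cell replicate 3, against 1.40 to 1.54 times in the other 3 cell libraries. It was at 1.28, 0.543 and 1.42 times for exosome replicates 2, 3 and 4, the last 2 on few fragments. Low values of other genes fell on whole fragments in cell replicates 2, 3 and 4 but not clearly in cell replicate 1. Whether all libraries were quantified alike, and how reads of adjacent, short or overlapping genes such as ATP6 and ND3 were assigned, was not tested, so these shares may not be shares of RNA.

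Across the 10 mRNAs, which are not independent replicates, the Spearman correlation of their levels was 0.988 between exosome replicate 2 and cell replicate 2 and 0.952 between exosome replicate 2 and cell replicate 4. It was 0.927 between cell replicates 2 and 4 and 0.767 between cell replicates 1 and 3. Between either of cell replicates 1 and 3 and either of cell replicates 2 and 4 it was 0.127 to 0.472. Exosome replicate 3, with few fragments, was at 0.897 with cell replicate 3 and 0.291 with cell replicate 2. Over all genes tested the correlation was 0.561 between cell replicates 1 and 3 and 0.817 between cell replicates 2 and 4. Between either of cell replicates 1 and 3 and either of 2 and 4 it was 0.619 to 0.693. Over all genes cell replicates 1 and 3 were thus not closer to each other than to the rest. The labels name no batch that would set the numbers 1 and 3 apart from 2 and 4.

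**Figure D4:**
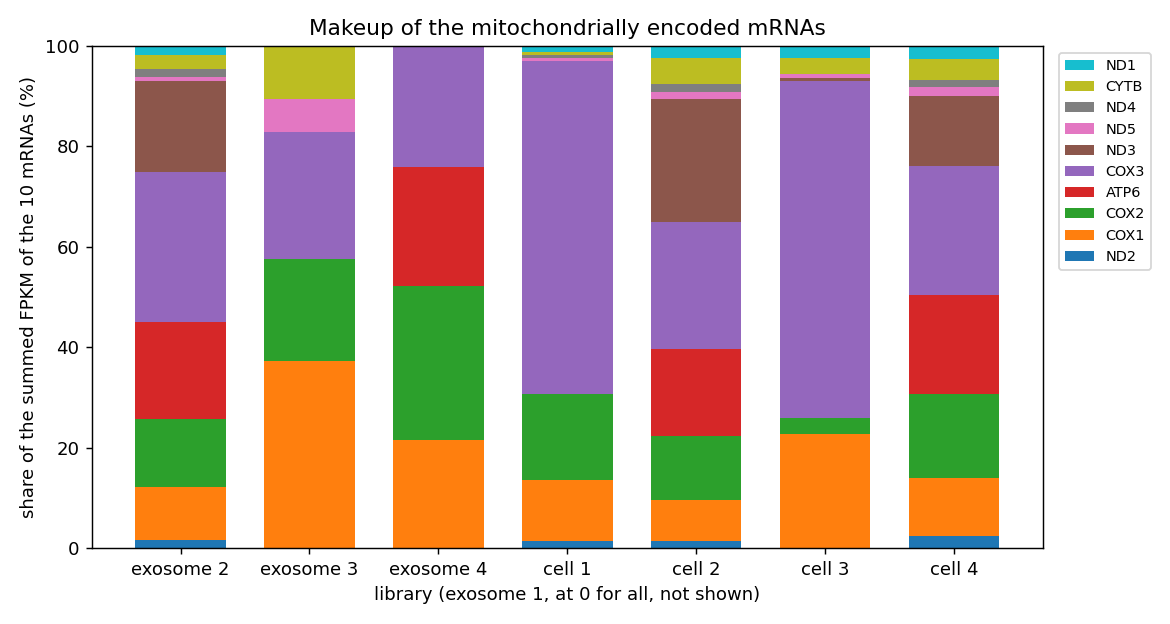
Share of each mRNA in the summed FPKM of the 10, in percent, for the 7 libraries in which any was above 0, stacked in gene order from ND2 at the bottom. COX3 takes 66.2% and 67.0% in cell replicates 1 and 3, against 25.3% and 25.6% for cell replicates 2 and 4, where ATP6 and ND3 appear. The bars of exosome replicates 3 and 4 rest on 19 and 20 fragments.

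From exosome replicate 2 to cell replicate 2, the 10 mRNAs were higher by 4.14-fold (COX1) to 10.1-fold (CYTB), with a median of 5.05-fold. Over the 2999 tested genes above 0 in exosome replicate 2, the median ratio between these libraries was 2.67-fold. The 2869 tested genes at 0 there have no ratio, so this is not a median of all genes tested. The ratios are in FPKM and carry the unequal scale, with a summed FPKM of 332170 in exosome replicate 2 and 1140885 in cell replicate 2. In ppm of summed FPKM the 10 mRNAs summed to 4702 and 7331 in these libraries. COX1, COX2, ATP6, COX3, ND2 and ND4 had ratios between 4.14 and 5.10, and ND3, ND1, ND5 and CYTB between 7.23 and 10.1. In exosome replicate 2 the ratios of ND2, ND5 and ND1 rest on 2 fragments each, that of ND4 on 3 and that of CYTB on 4, so the spread of the ratios is not resolved for these 5.

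The respiratory chain subunits that are encoded in the nucleus were closer to equal in exosomes and cells, though the difference between the lists was not tested. Of 72 nuclear respiratory chain genes 70 were tested and 0 were called by limma in either direction (background 0%). At an unadjusted limma p under 0.05, 2 of the 70 were lower (background 4.62%) and 0 higher (background 0.0852%). Their median log2 difference was -0.19 against -1.01 for all genes. The sign of this median was not stable, since it ran from -1.02 without cell replicate 4 to 0.74 with library weights. By complex the medians were 0.30 for 33 genes of complex I, -1.19 for 4 of complex II, -0.03 for 9 of complex III, 0.14 for 9 of complex IV and -1.42 for 14 of complex V.

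Relative to the nuclear-encoded subunits in the same library, the mitochondrially encoded mRNAs summed to 0%, 19.0%, 0.735% and 0.165% in the exosome libraries, against 4.96%, 33.6%, 27.3% and 47.4% in the cell libraries. This ratio does not depend on the scale of a library. Exosome replicates 1, 3 and 4 lay below all cells and exosome replicate 2 lay between cell replicates 1 and 3. In exosome replicate 1, 30 of the 72 nuclear genes were themselves listed at 0.

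For complex IV, with 3 mitochondrial and 9 nuclear genes, the mitochondrial sum was 0%, 47.7%, 2.93% and 0.524% of the nuclear sum in exosomes and 24.4%, 70.02%, 119.5% and 129.7% in cells. Nuclear subunit mRNAs of the complex were present in the same exosome libraries. The gene levy, for a nuclear subunit, had 950, 184, 51.2 and 224 FPKM in exosomes, against 467, 1246, 81.6 and 27.7 FPKM in cells. COX7C, another nuclear subunit gene, had 1166, 292, 37.8 and 348 FPKM in exosomes, against 568, 687, 66.3 and 29.3 FPKM in cells. For complex I the mitochondrial sum was 0%, 13.6%, 0.178% and 0% of the nuclear sum in exosomes and 0.752%, 33.1%, 4.31% and 28.6% in cells, so that exosome replicate 2 lay above cell replicates 1 and 3. For complex III, with CYTB as its mitochondrial gene, the share was 0%, 2.67%, 0.491% and 0% in exosomes, against 0.235%, 9.76%, 3.48% and 15.7% in cells. For complex V, with ATP6, it was 0%, 19.0%, 0% and 0.173% in exosomes, against 0%, 29.0%, 0% and 42.8% in cells. Without exosome replicate 2 the groups still overlapped in complexes III and V, but not in complexes I and IV. This leaves out the highest exosome library, and the 0% of exosome replicate 1 can come from failed estimates. No background was computed for such ratios.

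**Figure D5:**
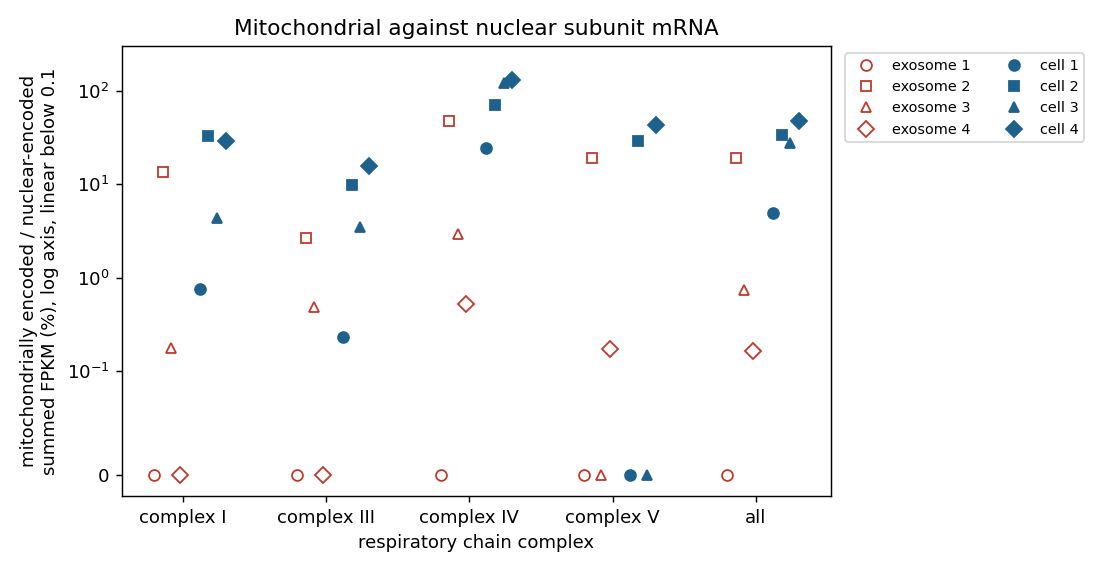
Summed FPKM of the mitochondrially encoded mRNAs as a percentage of that of the nuclear-encoded subunit genes of the same complex, and of all, in each library, on a log axis that is linear below 0.1. Open red symbols are exosome and filled blue symbols cell libraries. Over all complexes exosome replicates 3 and 4 lie at 0.735% and 0.165%, below the cells at 4.96% to 47.4%, and exosome replicate 2 lies at 19.0%.

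Other nuclear subunit genes, named for the highest mean FPKM of their complex in cells, had differences of both signs. In complex I the log2 difference was 0.73 (SE 1.85) for ND-B12 and -2.26 (SE 1.70) for ND-MNLL. In complex III it was 1.007 (SE 1.88) for UQCR-6.4 and -1.75 (SE 1.74) for UQCR-14. In complex V it was 0.67 (SE 1.89) for ATPsynF and -2.22 (SE 1.68) for ATPsyngamma, a subunit of the rotating stalk. For SdhC and SdhB, of the succinate dehydrogenase complex II, it was -1.65 (SE 1.59) and -0.45 (SE 1.63), and for Cyt-c-p, the soluble electron carrier cytochrome c, 0.36 (SE 1.92). None was called (limma adjusted p from 0.710 to 0.955). ND-MNLL, UQCR-14, ATPsyngamma and SdhC were listed at 0 in exosome replicate 1.

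Nuclear genes that serve the mitochondrial genome also had 0 called members by limma. The median log2 difference was -0.88 for 6 tested genes of mitochondrial transcription and replication, -0.94 for 5 of mitochondrial RNA processing and decay, -0.54 for 7 mitochondrial translation factors and -1.01 for 8 of import and the outer membrane. TFAM, which packages mitochondrial DNA, had 0, 46.7, 4.04 and 21.2 FPKM in exosomes, against 70.7, 69.6, 4.97 and 3.88 FPKM in cells. The single-stranded DNA binding protein gene mtSSB had 0, 27.996, 10.8 and 38.6 FPKM in exosomes, against 92.6, 109.1, 18.1 and 5.44 FPKM in cells. For both genes exosomes and cells overlapped also without exosome replicate 1.

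The log2 differences of the remaining named genes of these lists, none of them called, were -1.89 (SE 1.54) for scu, which encodes a subunit of the mitochondrial RNase P, and 0.06 (SE 1.36) for bsf, which encodes an RNA-binding protein of mitochondria. They were -0.52 (SE 1.52) for the elongation factor gene mEFTu1 and -1.09 (SE 1.38) for its exchange factor gene mEFTs. For porin, the channel of the outer membrane, it was 0.23 (SE 1.75), and for the matrix chaperone gene Hsp60A -2.63 (SE 1.55), with limma adjusted p from 0.708 to 0.987. The germline paralog Cyt-c-d was not tested, with at most 2.37 FPKM in any library.

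Markers of plasmatocytes also had log2 differences below 0, and their part in the result was not tested. Their median over 10 tested markers was -1.45, 8 of them were under the median of all genes, and limma called 0. Their summed FPKM over 13 genes was 71.1 to 174 in exosomes and 38.4 to 5645 in cells. Neuronal markers summed to at most 6.52 FPKM in any library, muscle markers to at most 1.66 and fat body markers to at most 8.71, and the 3 testis markers were at 0 in every library.

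The 10 mRNAs varied together over the 8 libraries. On the scale log2(ppm + 1), Pearson's r between pairs of them had a median of 0.852 and ran from 0.480 to 0.995 over 45 pairs. The 5 other genes most like their mean on this scale were AttB (r = 0.935 over 8 libraries), AttA (0.927), CG11655 (0.897), Idgf2 (0.894) and daw (0.893). The libraries share scale and depth, and no test was made of these values. AttB, which encodes an antibacterial attacin, had 157, 259, 26.2 and 138.8 FPKM in exosomes, against 395, 1403, 72.3 and 68.3 FPKM in cells. Its log2 difference was -1.04, close to the median of all genes (limma adjusted p = 0.846).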

How the data were processed

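Polyadenylated RNA of 4 exosome and 4 cell libraries was measured. The authors deposited FPKM values per transcript; the unit was inferred from the values. Build dm3 and the tools TopHat2, DESeq2 and Cufflinks come from the submitters' processing notes, which state neither version nor role. Strand use in counting is not stated in those notes or the labels. Transcripts (21081) were summed to 14012 genes, of which 12914 were matched to symbols of Release 6. The files name COX1, COX2, COX3, ND2 and ND3 (as mt:CoI and so on), and the other 5 members were named through Release 6. The 8 columns of the transposon table were not used.

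The test covered the 5868 genes above an FPKM of 1 in 4 or more libraries. It ran on log2(FPKM + 1), a pseudocount that understates the change of low genes, with limma 3.58.1 (R 4.3.3) with a trend, no block, and Benjamini-Hochberg adjustment at 0.05. For single values an exact permutation test (two-sided, 70 splits) was used. Depth was estimated from 6047 single-transcript genes: FPKM times effective length fell within 0.15 of whole multiples of a step for 71.9% to 87.0% of values under 8 fragments in 6 libraries, and for 40.5% and 47.1% in the replicates numbered 1, where evenly spread values give 30%. That share is no independent check, since the step came from the same values. Depth here means the fragments to which the values were scaled. Code was tested on simulated data.

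The members and lists were chosen with earlier results of these data known. Beside the members, the rule named other mitochondrially encoded genes, the 2 members per list with the highest mean in cells, and the 5 genes most like the members' mean.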

Additional observations from a re-analysis of the deposited data

Results flagged for a closer look

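In groups of 4 libraries, a library was marked as far from the others when its gap to the nearest one, as a share of the group's range, passed Dixon's 95% critical value on the log2(FPKM + 1) scale. Of 20 groups (10 mRNAs in exosomes and in cells), 5 were marked, where chance marks about 1 in 20 groups of independent values without ties. In exosomes these were ND2, ND3, ND4 and ND1, each with a gap of 1, the whole range, because exosome replicate 2 stood at log2 values of 4.67, 8.15, 4.78 and 4.83 and the other 3 libraries at 0. With 3 libraries tied at 0 any value above 0 is marked, so that rate does not apply to these 4, and the mRNAs vary together. In cells it was ND1, with a gap of 0.971, where cell replicate 2 stood at 7.70.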

How the results depend on the processing

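Of 186 log2 differences of single mRNAs under the alternatives tried, 185 stayed below 0 (85.7% of all genes tested were below 0 as reported), and the exception was ATP6, with -3.53 when exosome replicate 2 and 0.43 when cell replicate 2 was left out. Of 110 differences in ppm of summed FPKM, 109 stayed below 0, and the exception was ND3, with -604 ppm and 4.46 ppm when these libraries were left out. The cause was not tested. The log2 differences with no filter, the filter at FPKM 10, each transcript tested or the replicate block repeat the reported ones by construction. Their sign could not change, so they are no check. The median of the members tested ran from -5.06 with a pseudocount of 0.1 to -1.51 with a pseudocount of 10, and was -2.60 with quantile normalization, where the median of all genes was 0.11. With a filter at FPKM 10, 6 members were tested. Library weights called 1 member and 2 genes in all (COX3 and ITP). Leaving out 1 library each gave 0 to 1 called genes (1 without cell replicate 4, not a member) and 0 to 5 members whose groups did not overlap in ppm. That number was 2 with both replicates numbered 1 left out (4.21% of all genes tested), and 7 in FPKM without exosome replicate 2 (1.57%), a setting added after the data were seen. With the replicate number as a block 0 genes were called. The median of the members stayed at -3.19, as it must where every number occurs in both groups, so only SE and p could change. Same-numbered libraries deviated together with r of 0.233, 0.191, 0.452 and -0.0676 for numbers 1 to 4, and 3 of 4 exosome libraries correlated best with the cell library of their own number, exosome replicate 4 doing so with cell replicate 2. As the value for number 4 is under 0.1 and the labels do not say what a number marks, the numbers were not taken as pairs. The members' summed FPKM, and their sum in ppm, was lower in the exosome library than in the same-numbered cell library for 4 of 4 numbers. Depth limits the low exosome values, which rest on 0 to 10 fragments in exosome replicates 3 and 4.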
